A study of Mus musculus with 9 samples.

Results

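The CIDE, perilipin and lipid droplet coat genes are a set of 10 genes (Cidea, Cideb, Cidec, Plin2, Plin3, Plin4, Plin5, Fitm1, Fitm2 and G0s2) whose products sit on, build or guard the fat droplets of the cell. They were taken by symbol from the platform annotation, using every probe set paired with exactly 1 gene symbol. This gave 11 probe sets for the 10 genes, of 41782 probe sets measured and 17514 genes named in this way, with 2 probe sets for Plin5 and 1 for each other gene. Liver RNA of c57Bl/6 mice was measured on 9 Affymetrix GeneChip arrays. The HFD group (5 arrays) received a Harlan-Teklad high-fat diet with 21% fat, which supplied 42% of the calories, and the control group (4 arrays) carries the label Control, with chow named as the diet before the study. Sex, age, length of feeding, fasting state, time of day and batch are not in the labels. Nor is it stated whether arrays stand for different mice, and p-values therefore reflect the variation among these arrays, part or all of which may be technical.

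A lipid droplet is a store of triglyceride and cholesterol ester that forms in the membrane of the endoplasmic reticulum and buds into the cytosol under a single layer of phospholipid. FIT proteins (Fitm1, Fitm2) act in the endoplasmic reticulum at this first step, perilipins (Plin2 to Plin5) coat the surface and hold lipases off or bring them in, and CIDE proteins gather where droplets touch and pass lipid from the smaller to the larger. G0s2 is a small protein that inhibits adipose triglyceride lipase, the product of Pnpla2, which starts the breakdown of stored fat. In mouse liver Plin2 is the coat most closely tied to fat content, Cideb is the CIDE protein of normal hepatocytes, and Cidea and Cidec, better known from brown and white fat, are expressed in fatty liver.

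Promoter sequence is shown for 5 genes that rose in the HFD group. They shared the direction of the difference but not the order of the arrays, and shared regulation was not tested. Windows from the RefSeq table (GRCm38.p6) were used for 9 of the 10 genes, 11 windows in all, and the 250 bases before each start were searched on both strands. Cidea, which has a place in the RefSeq gene table, was left out of this search, so nothing is known here about its promoter. Only bases outside the annotated gene are printed, 1 window per gene, from 5′ to 3′. Capitals mark a match to AGGTCA (the half-site of many nuclear receptors), TATAAA or GGGCGG (the GC box), or to the reverse complement of one of them. The windows are, in order, chr6:113435761-113436010 (minus strand), chr14:55758425-55758674 (minus strand), chr4:86670218-86670309 (minus strand), chr14:55575424-55575673 (plus strand) and chr2:163472630-163472879 (minus strand).
Cidec: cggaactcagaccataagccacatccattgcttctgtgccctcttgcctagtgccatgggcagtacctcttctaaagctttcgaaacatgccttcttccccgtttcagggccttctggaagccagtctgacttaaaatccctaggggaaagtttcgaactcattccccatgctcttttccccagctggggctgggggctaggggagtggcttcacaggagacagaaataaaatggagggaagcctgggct
Cideb: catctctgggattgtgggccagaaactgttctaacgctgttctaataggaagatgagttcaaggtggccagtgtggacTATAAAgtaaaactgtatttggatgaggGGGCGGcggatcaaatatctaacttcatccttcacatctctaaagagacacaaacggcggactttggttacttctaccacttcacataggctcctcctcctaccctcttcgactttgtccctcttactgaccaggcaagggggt
Plin2: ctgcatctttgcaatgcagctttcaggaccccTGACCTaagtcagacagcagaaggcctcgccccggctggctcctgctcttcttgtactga
Fitm1: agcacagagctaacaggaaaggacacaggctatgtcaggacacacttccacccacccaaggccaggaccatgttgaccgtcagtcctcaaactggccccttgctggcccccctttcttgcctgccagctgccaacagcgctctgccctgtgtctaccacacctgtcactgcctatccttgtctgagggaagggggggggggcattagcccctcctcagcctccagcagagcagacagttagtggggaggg
Fitm2: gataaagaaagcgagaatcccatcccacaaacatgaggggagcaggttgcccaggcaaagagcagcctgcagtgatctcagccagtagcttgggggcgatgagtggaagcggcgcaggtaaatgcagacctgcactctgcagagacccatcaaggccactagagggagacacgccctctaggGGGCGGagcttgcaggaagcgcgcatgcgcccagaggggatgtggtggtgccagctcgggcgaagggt

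AGGTCA was found in 2 of the 11 windows, once before Plin2 and once before Plin5, against 14.0% of all 32851 windows of the same length. The DR1 element bound by PPAR and RXR is a pair of AGGTCA half-sites in the same direction with 1 base of any kind between them. Its exact letters occurred in 0 of the 11 windows and in 0.0335% of all. A match so rare makes 0 of 11 uninformative about these genes. TATAAA stood before Cideb alone of the 9 genes (12.4% of all windows), the GC box in 6 of the 11 windows (32.7% of all), and the E-box CACGTG in 0 of the 11 windows (6.02% of all). The GC box windows were those of Cideb and Fitm2, which rose, and of G0s2, Plin3 and Plin5 (both windows), which did not pass. These are matches of letters in short windows and describe no binding.

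In the HFD group 6 of the 10 genes rose and none fell. They were all 3 CIDE genes, both FIT genes and Plin2, with differences (HFD minus control, log2) from 0.40 for Fitm2 to 2.25 for Cidec. In limma, with p-values adjusted by Benjamini-Hochberg over all 41782 probe sets and a threshold of 0.05, 6 of the 11 probe sets were higher, where 2.04% of all probe sets were higher. None was lower, where 1.23% of all were. At an unadjusted p under 0.05 none was lower either, where 7.56% of all were. All 11 differences were positive, with a median of 0.61, against a median of -0.01 over all probe sets. In the same 6 probe sets every HFD array lay above every control array, which held for 4.5% of all probe sets. In none did every HFD array lie below every control array (3.5% of all), and in the other 5 the groups overlapped. The count of 6 was 2 without control replicate 2, where 0.859% of all probe sets were higher. It was 3 without control replicate 3 (1.04% of all) or without HFD replicate 3 (1.12% of all). By an unmoderated test it was 0 (0.656% of all), with 7 higher at an unadjusted p under 0.05 (8% of all).

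**Figure D1:**
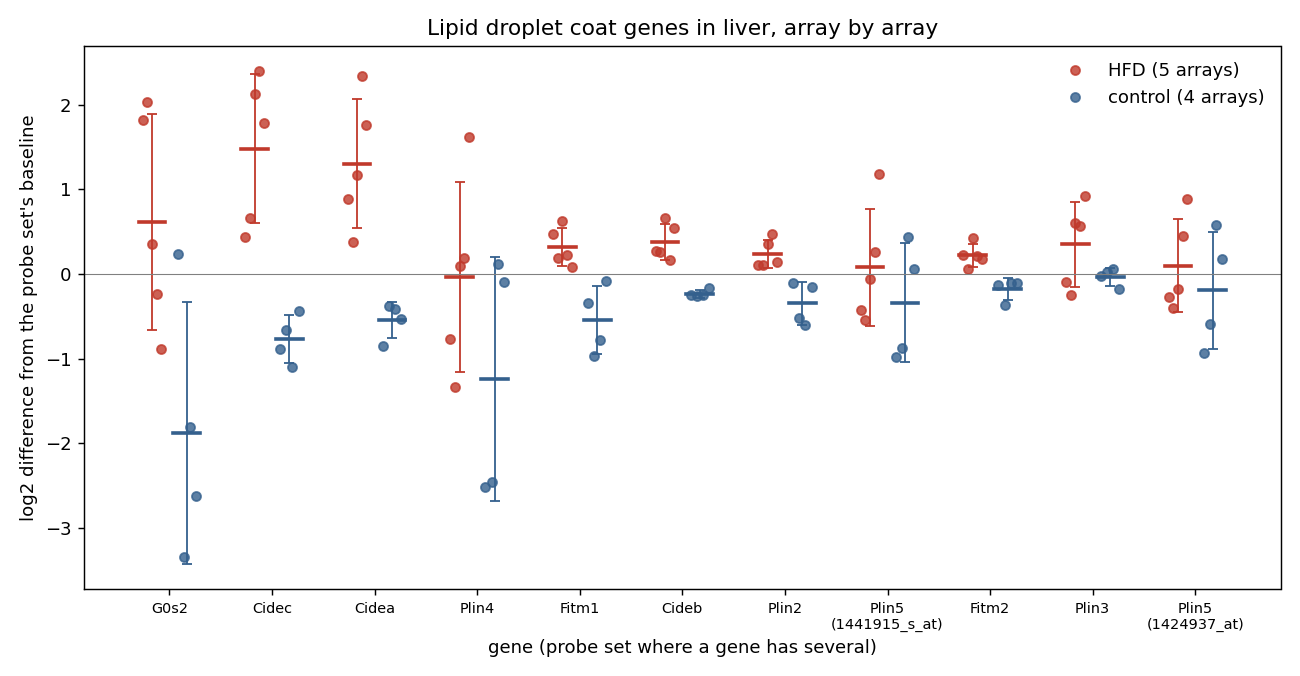
Values of the 11 probe sets on each array, as log2 differences from the baseline of the probe set, with HFD (5 arrays) left of control (4 arrays). Points are arrays, bars are group means and whiskers are 1 SD. In Cidec, Cidea, Fitm1, Cideb, Plin2 and Fitm2 all HFD points lie above all control points, and G0s2 and Plin4 have the widest spread.

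Cidec (probe set 1452260_at), which drives the growth of large droplets, had the largest difference among the genes that passed. Its values were 0.44, 0.66, 2.12, 2.41 and 1.79 in HFD replicates 1 to 5, against -0.89, -0.66, -1.10 and -0.44 in control replicates 1 to 4. Values are on a log2 scale relative to a baseline of the probe set, by the series' design text a median over samples, which the values show was not taken over these 9 arrays alone, so that levels cannot be read and genes cannot be ranked by level. HFD replicates 1 and 2 were the lowest of their group, and they still lay above all controls. The mean was 1.48 ± 0.88 (SD, n = 5) in HFD and -0.77 ± 0.29 (SD, n = 4) in control, a difference of 2.25 ± 0.38 (SE), or 4.77-fold (adjusted p = 0.0113 in limma).

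Cidea (1417956_at), the close relative of Cidec, had values of 0.89, 0.37, 1.17, 2.34 and 1.76 in HFD replicates 1 to 5, against -0.85, -0.37, -0.41 and -0.54 in control replicates 1 to 4. As for Cidec, HFD replicates 1 and 2 stood lowest of the HFD arrays and HFD replicate 4 highest. The mean was 1.31 ± 0.76 (SD, n = 5) in HFD and -0.54 ± 0.22 (SD, n = 4) in control. The difference was 1.85 ± 0.33 (3.60-fold, adjusted p = 0.0138 in limma). Without HFD replicate 5 and control replicate 1 together it was 1.63 and did not pass (adjusted p = 0.0558).

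Cideb (1418976_s_at), which also takes part in loading lipid onto very-low-density lipoprotein, showed a smaller and tighter difference. Its values were 0.27, 0.26, 0.66, 0.16 and 0.55 in HFD replicates 1 to 5, against -0.25, -0.26, -0.25 and -0.16 in control replicates 1 to 4. The controls lay within 0.10 of each other, and HFD replicate 4, the highest array for Cidec and Cidea, was the lowest HFD array here. The difference was 0.61 ± 0.11 (1.53-fold, adjusted p = 0.013 in limma), and the adjusted p was 0.0507 without control replicate 2. The suffix _s_at marks a probe set that can bind related transcripts.

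Plin2 (1448318_at), the main droplet coat of hepatocytes, had values of 0.11, 0.10, 0.35, 0.47 and 0.15 in HFD replicates 1 to 5, against -0.10, -0.52, -0.61 and -0.15 in control replicates 1 to 4. The groups were parted by 0.21 on the log2 scale, between HFD replicate 2 and control replicate 1. Plin2 was higher by 0.58 ± 0.13 (adjusted p = 0.0347 in limma). The call ended without control replicate 2 (adjusted p = 0.116), control replicate 3 (adjusted p = 0.104), HFD replicate 3 (adjusted p = 0.0904) or HFD replicate 4 (adjusted p = 0.0563).

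The other perilipins did not pass, and their arrays overlapped between the diets. Plin3 (1416424_at), a coat protein that moves between the cytosol and young droplets, stood at -0.10, -0.24, 0.60, 0.57 and 0.92 in HFD replicates 1 to 5, against -0.02, 0.02, 0.06 and -0.18 in control replicates 1 to 4. HFD replicates 3, 4 and 5 lay above every control, while HFD replicates 1 and 2 lay within or below the control range. The difference was 0.38 ± 0.22 (adjusted p = 0.425 in limma), with a 95% interval of -0.10 to 0.86, and it was 0.24 without HFD replicate 5.

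Plin4 (1418595_at), a perilipin known mainly from white fat and muscle, varied more within the groups than between them. It was at -0.77, -1.34, 0.10, 0.19 and 1.63 in HFD replicates 1 to 5, against -2.51, -2.46, 0.12 and -0.10 in control replicates 1 to 4. The controls fell apart into a low pair (replicates 1 and 2) and a pair near the baseline (replicates 3 and 4), and HFD replicate 5 stood highest. The difference was 1.20 ± 0.69 (adjusted p = 0.434 in limma), with a 95% interval of -0.32 to 2.72 that covers both no difference and one larger than that of Cidea. Removing control replicate 1 gave 0.78, removing control replicate 2 gave 0.79, and removing HFD replicate 5 gave 0.79.

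Plin5, which ties droplets to mitochondria in tissues that burn fat and binds the lipase of Pnpla2 and its activator Abhd5, was measured by a pair of probe sets. Probe set 1441915_s_at stood at -0.43, -0.55, -0.06, 0.26 and 1.18 in HFD replicates 1 to 5, against -0.98, -0.88, 0.44 and 0.06 in control replicates 1 to 4. Probe set 1424937_at stood at -0.28, -0.40, -0.18, 0.45 and 0.89 in HFD replicates 1 to 5, against -0.93, -0.59, 0.58 and 0.18 in control replicates 1 to 4. Both put the arrays of Plin5 in much the order of Plin4, with control replicates 1 and 2 lowest and HFD replicate 5 highest. Plin4 and Plin5 lie next to each other on chromosome 17 in the RefSeq gene table.

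The difference of Plin5 was 0.41 ± 0.38 by probe set 1441915_s_at (adjusted p = 0.655 in limma; 95% interval -0.42 to 1.25) and 0.29 ± 0.34 by probe set 1424937_at (adjusted p = 0.739; 95% interval -0.46 to 1.03). It stayed positive in both probe sets with any 1 array left out, and turned negative with a pair left out. Without HFD replicate 5 the differences were 0.14 and 0.09 in that order, without control replicate 1 they were 0.20 and 0.04, without control replicate 2 they were 0.24 and 0.15, and with both HFD replicate 5 and control replicate 1 left out they were -0.07 and -0.16. Leaving out control replicate 3 gave 0.67 and 0.55.

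**Figure D2:**
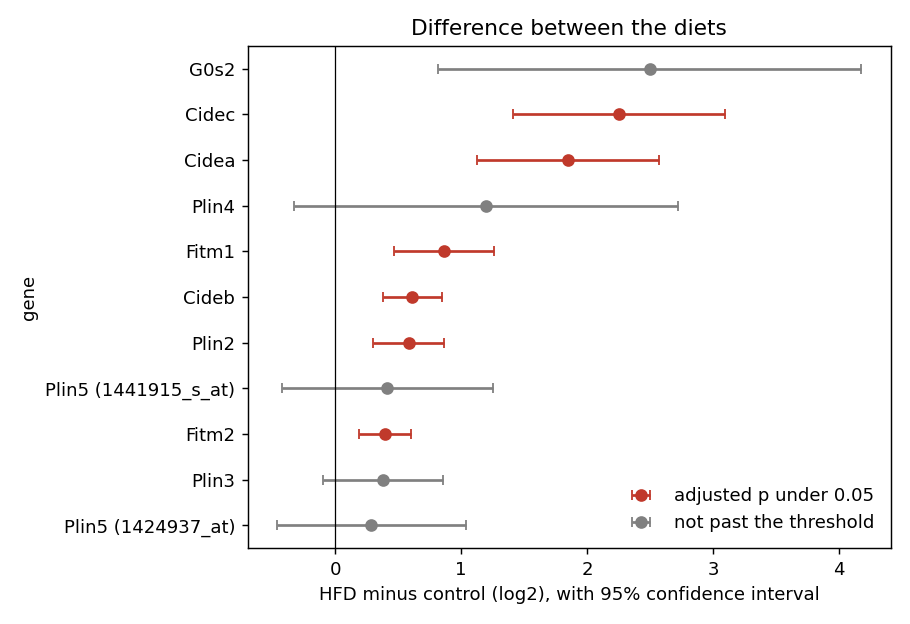
HFD minus control on the log2 scale for each probe set, with the 95% confidence interval of the limma fit. The intervals of the 6 probe sets with an adjusted p under 0.05 lie above 0, as does that of G0s2 (adjusted p = 0.115), and those of Plin3, Plin4 and Plin5 include 0.

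Both FIT genes rose. Fitm1 (1451488_at), the form known mainly from striated muscle, had values of 0.47, 0.19, 0.63, 0.23 and 0.08 in HFD replicates 1 to 5, against -0.34, -0.97, -0.78 and -0.08 in control replicates 1 to 4. The nearest arrays, HFD replicate 5 and control replicate 4, were 0.17 apart. Fitm1 was higher by 0.86 ± 0.18 (1.82-fold, adjusted p = 0.0283 in limma). It did not pass without control replicate 2 (adjusted p = 0.0857), control replicate 3 (adjusted p = 0.0942), HFD replicate 1 (adjusted p = 0.0577) or HFD replicate 3 (adjusted p = 0.0736). Of 8 striated muscle markers none passed in either direction, at a median difference of -0.04 over 9 probe sets. None had an unadjusted p under 0.05, where 8.88% of all probe sets were higher and 7.56% lower.

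Fitm2 (1454935_at), the form found in most tissues, had values of 0.22, 0.06, 0.42, 0.21 and 0.18 in HFD replicates 1 to 5, against -0.13, -0.37, -0.10 and -0.11 in control replicates 1 to 4. The groups did not overlap, but the gap was 0.16 on the log2 scale. The difference of 0.40 ± 0.09 (1.31-fold) was the smallest of those called and stood close to the threshold (adjusted p = 0.0451 in limma). It failed without any 1 array other than HFD replicate 2, with adjusted p-values from 0.0628 without HFD replicate 5 to 0.135 without control replicate 2.

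G0s2 (1448700_at), the lipase inhibitor, had the largest mean difference of the 10 genes and the widest spread. It stood at 1.82, 2.03, 0.35, -0.24 and -0.89 in HFD replicates 1 to 5, against 0.24, -3.35, -1.81 and -2.62 in control replicates 1 to 4. Control replicate 1 lay above HFD replicates 4 and 5, and the HFD arrays that were lowest for Cidec, Plin3 and Plin4, replicates 1 and 2, were the highest for G0s2. The difference was 2.50 ± 0.76, with a 95% interval of 0.82 to 4.17, and did not pass (adjusted p = 0.115 in limma). It was 3.21 without control replicate 1 and passed (adjusted p = 0.0387), and it passed under array weights (2.96, adjusted p = 0.049).

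**Figure D3:**
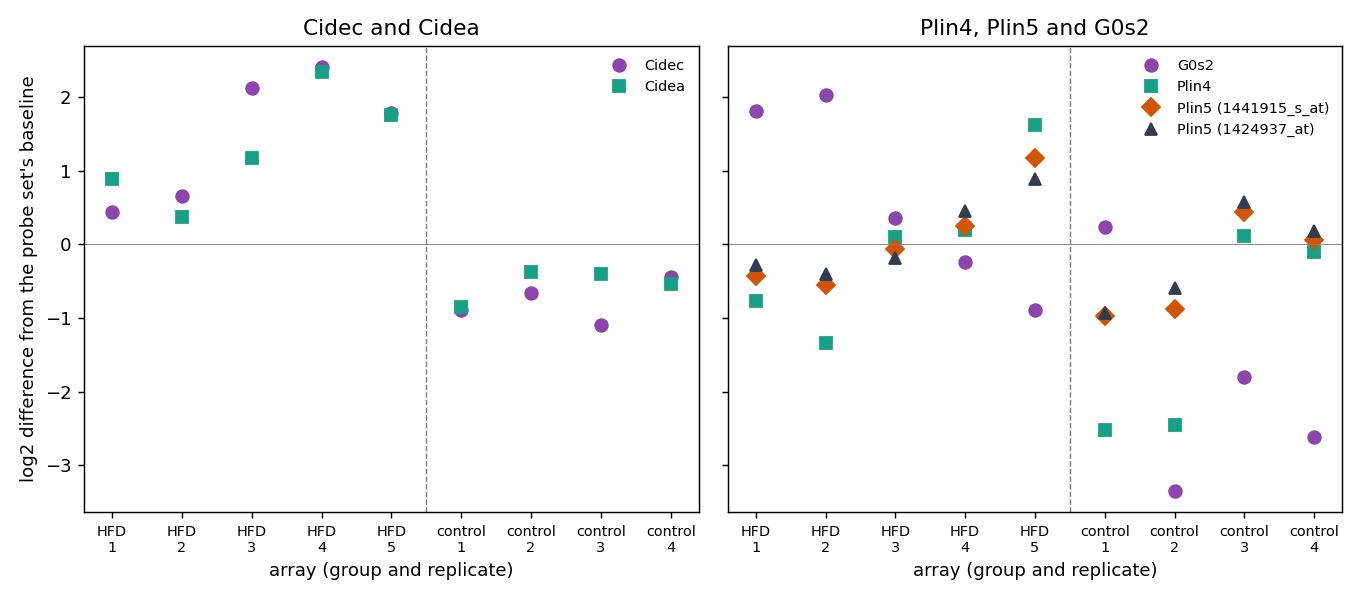
Values of Cidec and Cidea (left) and of G0s2, Plin4 and both Plin5 probe sets (right) on each array, as log2 differences from the baseline of the probe set, with the 5 HFD arrays left of the 4 control arrays. Cidec and Cidea keep the groups apart, whereas Plin4 and Plin5 are low in control replicates 1 and 2 and highest in HFD replicate 5, where G0s2 has its lowest HFD value.

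The SD among the HFD arrays was 1.28 for G0s2, 1.12 for Plin4, 0.88 for Cidec, 0.76 for Cidea, 0.69 and 0.55 for the probe sets of Plin5, 0.50 for Plin3, 0.23 for Fitm1, 0.21 for Cideb, 0.17 for Plin2 and 0.13 for Fitm2. The median over all probe sets was 0.16, and an HFD SD as large as that of Cidec occurred in 0.601% of them. In Cidec the SD of 0.88 in HFD stood against 0.29 in control, in Cidea 0.76 against 0.22, in Cideb 0.21 against 0.05 and in Plin3 0.50 against 0.11. These 4 and Fitm2 (0.13 in both groups after rounding) were the 5 of 11 probe sets with the larger SD in HFD, which held for 63.0% of all probe sets. G0s2, Plin4, Plin5, Plin2 and Fitm1 had the larger SD in control. HFD replicate 2 was the lowest HFD array in 7 of the 11 probe sets, and HFD replicate 5 the highest in 4. Each of these counts includes both probe sets of Plin5. The same order was not computed over all probe sets, so it is not known whether it is particular to these genes.

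**Figure D4:**
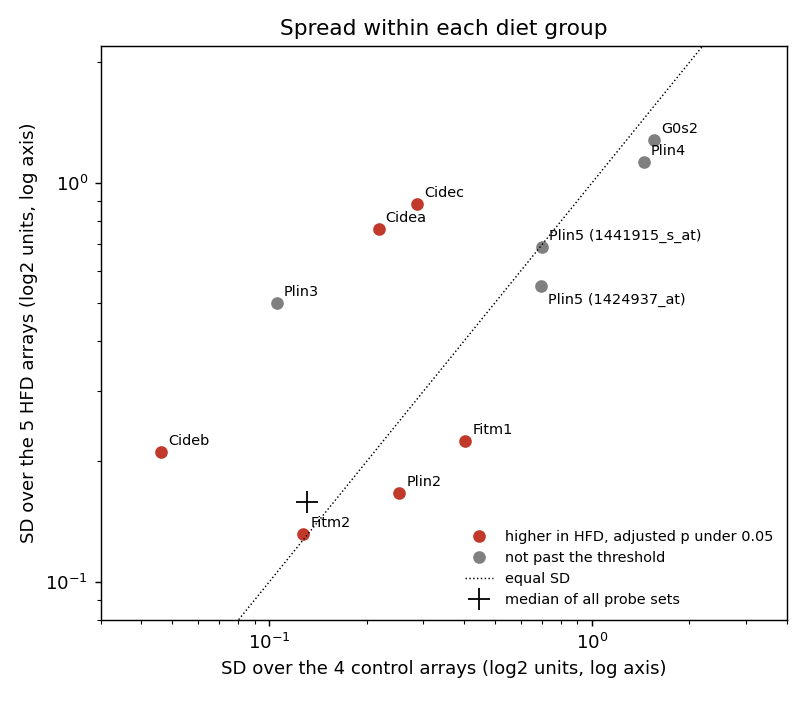
SD over the 5 HFD arrays (vertical) against SD over the 4 control arrays (horizontal), both in log2 units on log axes, for each probe set, with the line of equal SD and the median of all probe sets as a cross. Cidec, Cidea, Cideb and Plin3 lie well above the line, and G0s2, Plin4 and Plin5 have large SDs in both groups.

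The patterns closest to Cidec and Cidea were sought among all genes outside the set, by the root mean square difference over the 9 arrays. Nearest to Cidec were Elovl6, a fatty acid elongase (0.404 on the log2 scale), Anxa2, a calcium-dependent membrane-binding protein (0.461), Mogat1, a monoacylglycerol acyltransferase (0.518), Rgs5 (0.528) and Lgals1, a galectin (0.552). Nearest to Cidea were Rgs5 (0.399), Anxa2 (0.419), Mogat1 (0.433), Orm3 (0.519) and Tceal8 (0.536). Mogat1 stood at 0.66, 0.25, 1.65, 1.63 and 0.94 in HFD replicates 1 to 5, against -0.65, -0.69, -0.35 and -0.25 in control replicates 1 to 4, and so shared the lower values of HFD replicates 1 and 2. Genes chosen by closeness over these arrays share such features by that choice. Rgs5, Anxa2 and Mogat1 were near both.

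Among 27 measured partners of the droplet, a list of lipases, acyltransferases, seipin and proteins that bind the droplet surface, 5 genes rose and none fell. At an unadjusted p under 0.05 in any probe set, 9 genes were higher and 2 lower, where 8.88% and 7.56% of all probe sets were. At the adjusted threshold 7 of 62 probe sets were higher, where 2.04% of all were, and the median difference was 0.06. Mgll, the monoglyceride lipase, rose by 1.41 ± 0.20, in 3 of its 4 probe sets. Bscl2, which encodes seipin of the droplet-forming site, rose by 0.63 ± 0.13, Hsd17b11, a dehydrogenase on droplets, by 0.56 ± 0.07, Pcyt1a, an enzyme of phosphatidylcholine synthesis that binds growing droplets, by 0.51 ± 0.10, and Dgat2, which makes triglyceride, by 0.47 ± 0.10. Each of these 4 genes passed in 1 probe set only. Removing control replicate 2 brought the count of 5 to 2, removing either control replicate 3 or HFD replicate 3 brought it to 3, and it was 2 with the probe sets of each gene averaged, when 1 gene fell. Mgll and Hsd17b11 passed whichever array was left out. Pcyt1a did not pass without control replicate 2 (adjusted p = 0.0564), and Bscl2 did not without control replicate 1, 2 or 3 or HFD replicate 3 (adjusted p from 0.0721 to 0.1). Dgat2 did not pass without control replicate 2, 3 or 4, HFD replicate 3 or HFD replicate 5 (adjusted p from 0.0587 to 0.106). Pnpla2, whose lipase G0s2 inhibits and Plin5 binds, and Abhd5, the activator of that lipase, were named here for their roles after values were seen. The differences were -0.11 ± 0.13 for Pnpla2 (adjusted p = 0.737 in limma) and -0.51 ± 0.15 for Abhd5 (adjusted p = 0.112).

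Of 15 measured nuclear receptors and lipid transcription factors 3 genes rose and 1 fell, at a median difference of -0.04 over 30 probe sets. By probe set 5 of 30 were higher and 2 lower, where 2.04% and 1.23% of all probe sets were. Ppara, the receptor that drives fat oxidation and Plin5 among its targets, rose in all 3 of its probe sets, with 1.34 ± 0.26 in that of the lowest p. Pparg, the receptor of fat storage, for which Cidec and Cidea are known targets, rose by 0.82 ± 0.16, Srebf1 rose by 1.54 ± 0.26, and Srebf2 fell by 0.81 ± 0.13. In Pparg the lowest HFD value lay 0.23 above the highest control. The count of 3 was 1 without control replicate 2 or HFD replicate 3. Pparg did not pass in those fits or without control replicate 3 (adjusted p from 0.06 to 0.0763), and the named probe set of Ppara did not in those fits or without control replicate 4 (adjusted p from 0.0614 to 0.074).

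Several of these genes are also expressed in fat cells, stellate cells and macrophages, and the markers of those cells were read on the same arrays. A gene is counted at an unadjusted p under 0.05 (limma) if any of its probe sets passed. At that p 8.88% of all probe sets were higher and 7.56% lower. Of 9 measured adipocyte markers none passed (2 were higher and 2 lower at an unadjusted p under 0.05), with array means of the list from 0.00 to 0.18 in HFD and from -0.15 to 0.14 in control, and Adipoq at a difference of 0.03 ± 0.13. The widest differences of that list were 3.26 ± 1.18 for Car3 and -1.41 ± 0.45 for Pck1 (adjusted p = 0.191 and 0.136 in limma), and Car3 passed without control replicate 1 and Pck1 without HFD replicate 4. The array means of the list include Car3 and Pck1, and bulk liver does not tell which cells their RNA came from. Of 10 stellate cell markers Rgs5 (1.87 ± 0.26, in 2 of its 4 probe sets) and Lrat (0.71 ± 0.17, adjusted p = 0.0496 in limma, in 1 of its 2) rose. By probe set 3 of 24 were higher and 0 lower, where 2.04% and 1.23% of all probe sets were. When any 1 array other than HFD replicate 1 was left out, 1 of the 10 genes rose. Reln (-0.53 ± 0.13 with all arrays, adjusted p = 0.0545) fell without HFD replicate 4, the array means running from -0.21 to 0.28 in HFD and from -0.21 to 0.01 in control. Of 10 Kupffer cell markers 7 fell and none rose, and all 10 were lower at an unadjusted p under 0.05. Counted by probe set, 9 of 13 were lower, where 1.23% of all probe sets were. On leaving out control replicate 4, 9 genes fell. The count was 4 on leaving out HFD replicate 3 or control replicate 1, and 3 on leaving out control replicate 2 or 3. Array means ran from -1.15 to 0.05 in HFD and from 0.14 to 1.26 in control. Of 9 hepatocyte markers Hnf4a fell in 1 of its 4 probe sets and none rose, while 5 were lower and 0 higher at an unadjusted p under 0.05. This was 1 of 18 probe sets of the list lower, where 1.23% of all probe sets were. Removing any 1 of the control arrays, or HFD replicate 3, ended the call of Hnf4a. Array means ran from -0.22 to -0.04 in HFD and from 0.07 to 0.24 in control. In bulk liver fewer cells of a type and less RNA per cell cannot be told apart, and the part of these cells in the results was not tested. Centred values do not show whether a marker is detected at all, so that the label liver could not be checked by levels.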

How the data were processed

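The authors deposited 1 table of log2 values for 9 arrays. According to the series' design text, the authors' values are RMA summaries after quantile normalization, each set relative to its median across samples. The log base is read from RMA, since none is stated in the sources used here. The median over these 9 arrays was within 0.001 of 0 in 4.46% of probe sets, and over any 8 of them in at most 49.0%, while the middle value and a neighbour mirrored around 0 in 92.9%. Such a middle pair is what a median over an even number of arrays gives, so the baseline was taken over some other set of arrays, and any beyond the 9 were not analysed here. It shifts all arrays of a probe set alike and leaves differences between groups as they are, but it removes levels, so that no filter on signal was applied. RMA also compresses differences of dim probe sets. No scan date or batch is given in the sources used here, and the number of arrays limits the precision.

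From the table, 60 control probe sets were left out and 41782 fitted for diet in R 4.3.3 by limma 3.58.1 (eBayes after lmFit, two-sided, no covariate, Benjamini-Hochberg over all, threshold 0.05). Probe sets were kept apart; 32801 had 1 symbol, 862 several and 8119 none. Entrez IDs placed all 11 probe sets of the set in the RefSeq gene table, under the same symbols. The genes and lists were chosen with earlier results of these data known. Named were all 10 genes, up to 8 genes per list past the threshold by lowest p, and the 5 nearest patterns of Cidec and Cidea. Of the lists, Plin1, Cfd, Adrb3 and Serpina1a were not analysed here. The fit was tested on simulated data. Replicates were numbered in accession order, which pairs none. Alternatives tried were other scalings, gene-level summaries, filters, variance models, thresholds and leaving out arrays.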

Additional observations from a re-analysis of the deposited data

Results flagged for a closer look

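In 60 groups of arrays checked, those of the 11 probe sets and of the named list genes in each diet, 4 held an array far from the rest of its group, where chance gives about 1 in 20. Control replicate 4 was the highest control for Cideb at -0.16, with the next at -0.25, and control replicate 2 was the lowest for Fitm2 at -0.37, with the next at -0.13. HFD replicate 5 was the highest HFD array for Pcyt1a at 0.43, with the next at 0.22. Control replicate 4 was the highest control for Bscl2 at -0.0731, with the next at -0.32.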

How the results depend on the processing

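The count of 6 probe sets, and of 6 genes, higher in HFD ran from 2 to 6 when 1 array was left out. It was 0 at an adjusted p under 0.01, which 0.55% of all probe sets passed higher. By an unmoderated test it was also 0 (0.656% of all), with adjusted p-values from 0.0594 to 0.125 for the 6. At an unadjusted p under 0.05 in that test 7 of the 11 were higher, against 8% of all. The count was 4 with a change of at least 1.5-fold also required (1.26% of all). It was 5 to 7 under the scalings, gene-level summaries, filters, robust eBayes and array weights, and with HFD replicate 5 and control replicate 1 both left out. No probe set was lower under any of these. Of 217 differences recomputed for single probe sets, 180 kept direction and side of the threshold, 32 lost the call, 3 gained it (all G0s2) and 2 turned sign, those of Plin5 without HFD replicate 5 and control replicate 1 together (-0.157 for 1424937_at and -0.073 for 1441915_s_at). Cidec kept its call under every alternative except the stricter threshold and the unmoderated test. The cause of these changes was not tested. In the fits with 1 array left out, 0.859% to 2.08% of all probe sets were higher, against 2.04% with all arrays. The 2.08% was without HFD replicate 4, where the count of the set was 4. For the droplet partners, recomputed after the data were seen, the count of 5 higher ran from 2 to 5 with 1 array left out and that of 0 lower from 0 to 1. With averaged probe sets 2 were higher and 1 lower, with the most variable probe set 3 were higher, and 1 was higher by the unmoderated test, 2 at an adjusted p under 0.01, 2 with the 1.5-fold limit and 2 with HFD replicate 5 and control replicate 1 both left out. For the transcription factors 3 higher became 1 to 3 with 1 array left out, 0 at an adjusted p under 0.01 and 0 by the unmoderated test, where 0 were lower. No paired analysis was possible because the labels give no replicate numbers.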

Other observations

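The patterns nearest to Plin4, Plin5 and G0s2 were sought after the values of these genes had been seen. Nearest to Plin4 by root mean square difference over the 9 arrays were Il6ra (0.74 on the log2 scale), Fam214a (0.789), Slco1a4 (0.839), Cyp4a14, a fatty acid hydroxylase (0.856), and Erlec1 (0.877). Nearest to Plin5 (1441915_s_at) were Erlec1 (0.245), Mpzl2 (0.281), Chd1l (0.301), Rhobtb1 (0.305) and Fmo5 (0.311). Cyp4a14 stood at -0.83, -1.60, 0.33, 0.31 and 0.18 in HFD replicates 1 to 5, against -0.61, -1.60, 0.14 and -0.14 in control replicates 1 to 4. The same arrays were low in both diets as for Plin4, which the choice by closeness favours.

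Nearest to G0s2 were Arrdc3 (0.955), Nr0b2, the nuclear receptor SHP (1.12), Rnf43 (1.13), Dusp1, an immediate early phosphatase (1.14), and Ppp1r3c, a glycogen-targeting subunit (1.17). Arrdc3 stood at 1.80, 1.86, 1.57, 0.90 and -0.90 in HFD replicates 1 to 5, against 1.32, -1.43, -2.34 and -2.12 in control replicates 1 to 4. It shared with G0s2 the high value of control replicate 1, which the choice by closeness favours. None of these genes passed for diet (adjusted p from 0.17 to 0.373 for the 5 nearest to G0s2).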
